A study of Homo sapiens with 6 samples.

Results

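MFSD2A, VLDLR, LRP1, LRP8, MYLIP and ANGPTL4 are 6 genes of lipid and lipoprotein uptake, taken by gene symbol from a table of 58825 genes. They were chosen on their difference between the groups compared here, so their values in that comparison are a description and carry no test. RNA was profiled in PANC-1, an established human pancreatic ductal carcinoma line. The treated group had 8 µM of CMR, as the labels call the compound, for 48 h, and the other group is labelled control, with 3 libraries each of poly(A)-selected RNA. All cells were grown in DMEM with fetal bovine serum, which itself contains lipoproteins. What the control cells received, the full name of CMR, and whether each library is a culture of its own are not given in the sources used here. In what follows, p-values therefore reflect the spread among 3 libraries a group, which may be technical.

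Cells take up lipid from lipoproteins in several ways. Several receptors of the lipoprotein receptor family bind apolipoproteins and carry whole particles into endosomes, while others of the family have other roles. Among them VLDLR binds APOE-rich particles and reelin, LRP8 (also called APOER2) is its closest relative and a reelin receptor, and LRP1 is a large receptor for many ligands. MYLIP, also called IDOL, is a ubiquitin ligase induced by the sterol-sensing LXR factors that marks VLDLR and LRP8 for degradation. Lipoprotein lipase frees fatty acids from particles outside the cell, and ANGPTL4 is a secreted inhibitor of that enzyme and a known target of PPAR factors. MFSD2A is a membrane transporter that takes up lysophosphatidylcholine carrying long-chain fatty acids such as docosahexaenoic acid, best known from the blood-brain barrier.

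In the CMR libraries MFSD2A was 65.6-fold higher than in control, VLDLR 14.1-fold higher, LRP1 3.08-fold higher and LRP8 1.43-fold higher. MYLIP was 1.73-fold lower and ANGPTL4 3.0-fold lower. All 6 genes passed the filter on low counts, and in each of them the 3 CMR libraries did not overlap the 3 control libraries, with 4 genes higher and 2 lower. Libraries of both groups did not overlap in 53.9% of the 19200 genes tested (27.3% higher and 26.6% lower), and since the genes were chosen on this contrast nothing is read from their count. The called share was 38.6% of all tested genes, 20.5% higher and 18.1% lower, at an adjusted p under 0.05. With upper-quartile scaling, which shifted the log2 fold changes by -0.13 at their median, fewer of the called genes were higher (3250 higher and 4324 lower) than with the scaling used here (3928 higher and 3476 lower).

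Library totals ran from 66460535 to 70129221 counts with CMR and from 51147268 to 63811430 in control. The PANC-1 markers KRT8, KRT18, KRT19, VIM, EPCAM and KRT7 all reached 1 FPKM (fragments per gene length and library size, as the authors computed them) in at least 1 library. Their summed level was 1227 to 1340 FPKM in control and 339 to 540 FPKM with CMR, mostly that of KRT8, KRT18, KRT19 and VIM. EPCAM was not lower with CMR (mean 7.31 FPKM in control and 8.01 FPKM with CMR). KRT7 was below 1 FPKM in every CMR library. The labels' protocol text also speaks of an adipose source. Of 5 adipocyte markers none reached 1 FPKM in any library, LEP had no count in any, and their summed level was at most 0.164 FPKM in control and 0.0830 FPKM with CMR. Markers of leukocytes, endothelium, hepatocytes and acinar or endocrine pancreas also stayed below 1 FPKM in every library. In bulk RNA, a change in the share of cells expressing a gene and a change of RNA per cell cannot be told apart.

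The bases before the start sites of MFSD2A, VLDLR and MYLIP are shown because the first pair had the largest rise and MYLIP, which acts against VLDLR, was lower. The sequences are from RefSeq on GRCh38.p14, where all 6 genes were matched by symbol, and lie on the plus strand. They are MFSD2A at chr1:39954895-39955111, VLDLR at chr9:2621537-2621786 and MYLIP at chr6:16128836-16129085. The MFSD2A stretch ends before the gene's start in the deposited table, which lies 33 bases before the RefSeq start. Capitals mark matches on either strand to CCAAT (the box bound by NF-Y, seen as ATTGG on the other strand), to CCACG (the distal part of the ER stress element, CGTGG on the other strand) and to TGACNNNGC (the core of the antioxidant response element).
MFSD2A: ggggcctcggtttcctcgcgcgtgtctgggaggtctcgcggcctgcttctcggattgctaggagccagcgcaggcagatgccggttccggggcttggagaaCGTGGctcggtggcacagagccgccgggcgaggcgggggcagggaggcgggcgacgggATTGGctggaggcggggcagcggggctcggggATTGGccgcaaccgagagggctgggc
VLDLR: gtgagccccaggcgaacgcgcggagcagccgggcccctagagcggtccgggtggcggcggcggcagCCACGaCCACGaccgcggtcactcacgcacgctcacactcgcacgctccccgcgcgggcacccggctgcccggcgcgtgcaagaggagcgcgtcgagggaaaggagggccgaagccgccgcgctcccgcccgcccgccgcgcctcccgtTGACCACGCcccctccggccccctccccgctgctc
MYLIP: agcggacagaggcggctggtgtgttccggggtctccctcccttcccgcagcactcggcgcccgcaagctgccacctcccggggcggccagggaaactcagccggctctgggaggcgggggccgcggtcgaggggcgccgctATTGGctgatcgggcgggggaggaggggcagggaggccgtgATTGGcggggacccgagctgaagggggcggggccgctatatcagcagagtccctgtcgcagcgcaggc

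The 250 bases before the RefSeq start were 72.0% G or C for MFSD2A, 78.8% for VLDLR and 73.6% for MYLIP, against a median of 58.0% over 27305 promoters of that length. MFSD2A held 2 CCAAT matches, 91 and 59 bases before its RefSeq start, and 1 CCACG match at 149. VLDLR held 3 CCACG matches, at 184, 178 and 32 bases, of which the last lies within its only TGACNNNGC match, at 35. MYLIP held 2 CCAAT matches, at 109 and 68 bases, and no CCACG match. Of all promoters 33.0% held CCAAT, 33.3% CCACG and 11.0% TGACNNNGC, so the first 2 motifs are common. The strand was searched both ways for 5 other motifs. These were TGATGNAA (the element bound by ATF4 with C/EBP factors, in 3.19% of promoters), TGACGTCA (the cAMP response element, 1.77%), CACGTG (the E-box, 6.49%), TCACNCCAC (a sterol regulatory element, 0.875%) and GGGCGG (the GC box, 42.3%). None of the 6 genes held the first 4 of these in this window. GGGCGG, left in lower case above, was matched in each except MFSD2A. LRP8 held 2 CCACG matches, ANGPTL4 1 and LRP1 none. Of the 6 genes only MFSD2A held both CCAAT and CCACG, the nearest of these at 91 and 149 bases. CCACG is only a part of the ER stress element. The whole element was not searched for, so none is read from these matches. The RefSeq start of ANGPTL4 lies 866 bases inside the gene's span in the table, and that window may not be the promoter of its longer transcripts.

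MFSD2A (ENSG00000168389, chromosome 1, 39955112 to 39969968, plus strand, in the table's coordinates, which equal those of GENCODE release 29 on GRCh38) had 36, 63 and 49 counts in control replicates 1, 2 and 3. In CMR replicates 1, 2 and 3 it had 3464, 3224 and 4738 counts. As normalised CPM (counts scaled to library size with a composition factor), these were 0.688, 1.19 and 0.748 in control and 52.4, 47.4 and 72.3 with CMR. The lowest CMR library was 39.9-fold above the highest control library. The group means were 0.875 ± 0.273 in control and 57.4 ± 13.2 with CMR (SD, n = 3), a log2 fold change of 6.04 ± 0.29 (SE). By the size of its rise MFSD2A held rank 58 of the 19200 genes tested.

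On the per-length scale, MFSD2A went from 0.180 ± 0.0575 FPKM in control to 11.7 ± 2.53 FPKM with CMR (SD, n = 3). Among tested protein-coding genes that was a move from percentile 13.2 to percentile 76.6. The only overlapping gene with a count, the RNA gene listed as AL663070 on the same strand, had a mean of 3 counts in control and 32 with CMR, or 0.907% of the counts of MFSD2A.

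**Figure D1:**
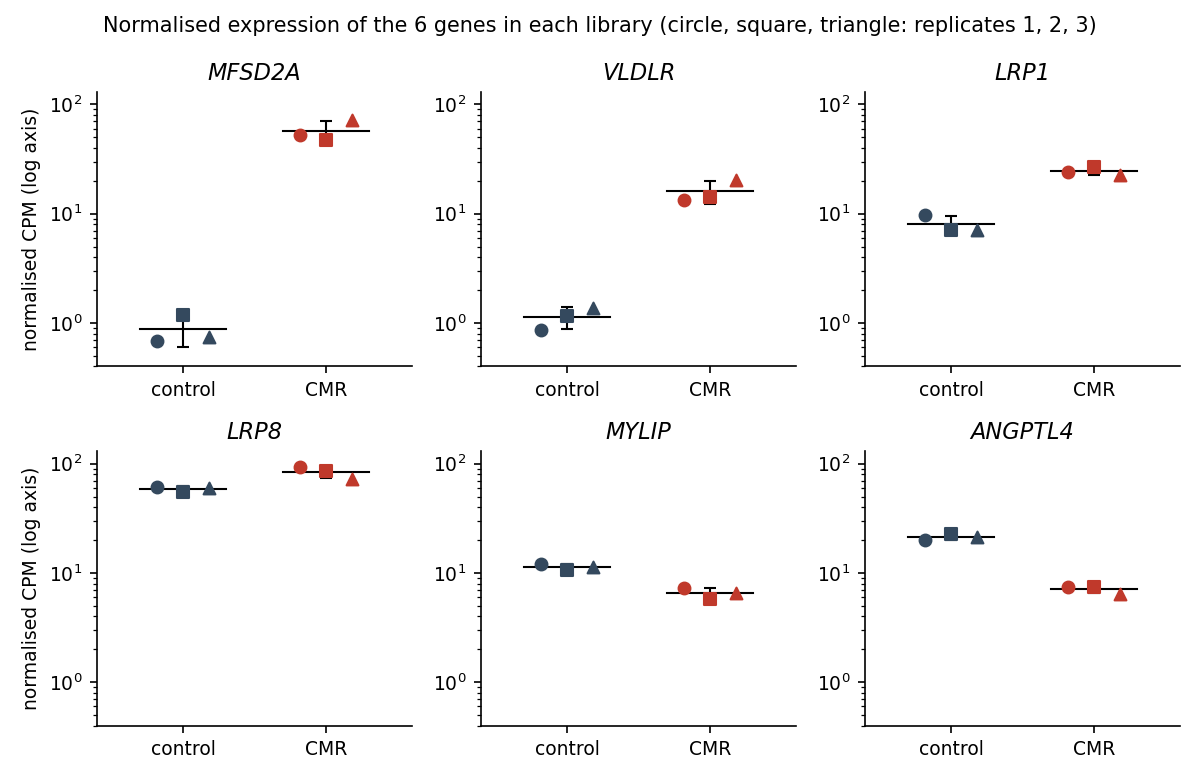
Normalised CPM (log axis) of the 6 genes in the 3 control and 3 CMR libraries. Symbols are single libraries, horizontal lines the group means and error bars the SD. MFSD2A and VLDLR lie near 1 CPM in control and at 47.4 to 72.3 and 13.5 to 20.4 CPM with CMR, while MYLIP and ANGPTL4 are lower with CMR.

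VLDLR (ENSG00000147852, chromosome 9, 2621787 to 2660056, plus strand) had 45, 62 and 90 counts in control and 889, 976 and 1335 with CMR. The normalised values were 0.860, 1.17 and 1.37 CPM in control and 13.5, 14.3 and 20.4 CPM with CMR. Every CMR library was at least 9.80-fold above the highest control library. The means were 1.13 ± 0.259 in control and 16.1 ± 3.76 with CMR (SD, n = 3), a log2 fold change of 3.82 ± 0.27, and rank 136 by size of rise. CMR replicate 3 was the highest of its group for both VLDLR and MFSD2A, by 0.37 and 0.36 above the group mean on the log2 CPM scale. The antisense gene VLDLR-AS1, which overlaps VLDLR, had a mean of 5.33 counts in control and 82.0 with CMR, or 7.71% of the counts of VLDLR. Whether the counting used strand is not given in the sources used here, and without strand, reads of the pair cannot be told apart.

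LRP8 (ENSG00000157193, chromosome 1, 53242364 to 53328070, minus strand), with 61.1, 55.2 and 60.2 CPM in control, had 93.5, 86.3 and 73.1 CPM with CMR. CMR replicate 3, the highest library for VLDLR, was the lowest of its group here. It was still 1.20-fold above the highest control library. The log2 fold change was 0.52 ± 0.12. LRP8 thus differed far less than its relative VLDLR. In control there was 40.4 to 65.2 times as much LRP8 as VLDLR mRNA per gene length (FPKM ratio, the lowest and highest library), and with CMR 3.28 to 6.36 times as much.

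LRP1 (ENSG00000123384, chromosome 12, 57128493 to 57213351, plus strand) had 9.82, 7.07 and 7.11 CPM in control and 24.2, 26.9 and 22.8 CPM with CMR. The groups stood apart by at least 2.32-fold, and the log2 fold change was 1.62 ± 0.17. Control replicate 1 was the highest of the control libraries. STAT6, on the other strand, overlaps LRP1 at its start and had 279% of its mean count. STAT6 had mean counts of 3015 in control and 2830 with CMR. These are not scaled to library size, and the CMR libraries had the larger totals. The part of overlapping reads in the value of LRP1 was not tested.

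MYLIP (ENSG00000007944, chromosome 6, 16129086 to 16148248, plus strand) went the other way. It had 11.98, 10.6 and 11.3 CPM in control and 7.27, 5.72 and 6.62 CPM with CMR. The log2 fold change was -0.79 ± 0.15, and the lowest control library was 1.46-fold above the highest CMR library. The mRNA of this ligase was thus lower in the same libraries in which the mRNAs of its substrates VLDLR and LRP8 were higher. MYLIP acts on the receptor proteins, whose levels are not in these data. A link between these differences was not tested.

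ANGPTL4 (ENSG00000167772, chromosome 19, 8363289 to 8374370, plus strand) had 20.1, 22.8 and 21.2 CPM in control and 7.48, 7.45 and 6.42 CPM with CMR. Both groups were tight, with coefficients of variation of 6.37% in control and 8.47% with CMR, and stood apart by at least 2.68-fold. The log2 fold change was -1.58 ± 0.13. With upper-quartile scaling it was -1.71, a move of the size by which that scaling shifts all genes.

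**Figure D2:**
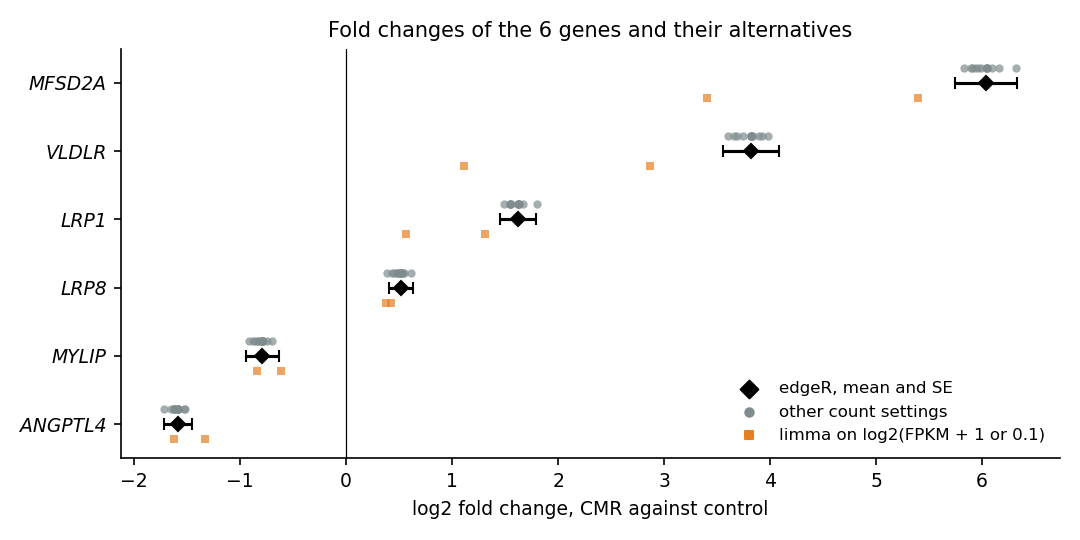
Log2 fold change of each of the 6 genes, CMR against control, with its SE from the edgeR fit (diamonds), under the other settings on counts (circles) and with limma on log2(FPKM + pseudocount) (squares). Every value keeps its sign, and the pseudocount compresses MFSD2A, VLDLR and LRP1 most.

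The order of the genes by level per gene length changed. In control it ran ANGPTL4 (7.42 ± 0.480 FPKM), LRP8 (4.94 ± 0.259), MYLIP (3.17 ± 0.187), LRP1 (0.330 ± 0.0647), MFSD2A (0.180 ± 0.0575) and VLDLR (0.103 ± 0.0233), all SD with n = 3. No neighbours in that order overlapped between libraries. With CMR it ran MFSD2A (11.7 ± 2.53 FPKM), LRP8 (6.72 ± 0.943), ANGPTL4 (2.34 ± 0.232), MYLIP (1.74 ± 0.231), VLDLR (1.39 ± 0.305) and LRP1 (0.964 ± 0.0859). MYLIP and VLDLR overlapped in that order, while the other neighbours did not. ANGPTL4 exceeded MFSD2A by 32.4 to 50.7 times in the control libraries, and MFSD2A exceeded ANGPTL4 by 3.94 to 6.97 times in the CMR libraries.

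Among 14 receptors of the family described here, the 3 of the set and 11 others, VLDLR was number 12 by FPKM in every control library and number 8 or 9 in the CMR libraries. LRP1 was number 11 in every control library and number 9 or 10 with CMR, and LRP8 number 6 or 7 in control and number 4 in every CMR library. These 14 are not the whole family, so no share of its mRNA is given. The ranks are of mRNA, and uptake of particles was not measured.

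**Figure D3:**
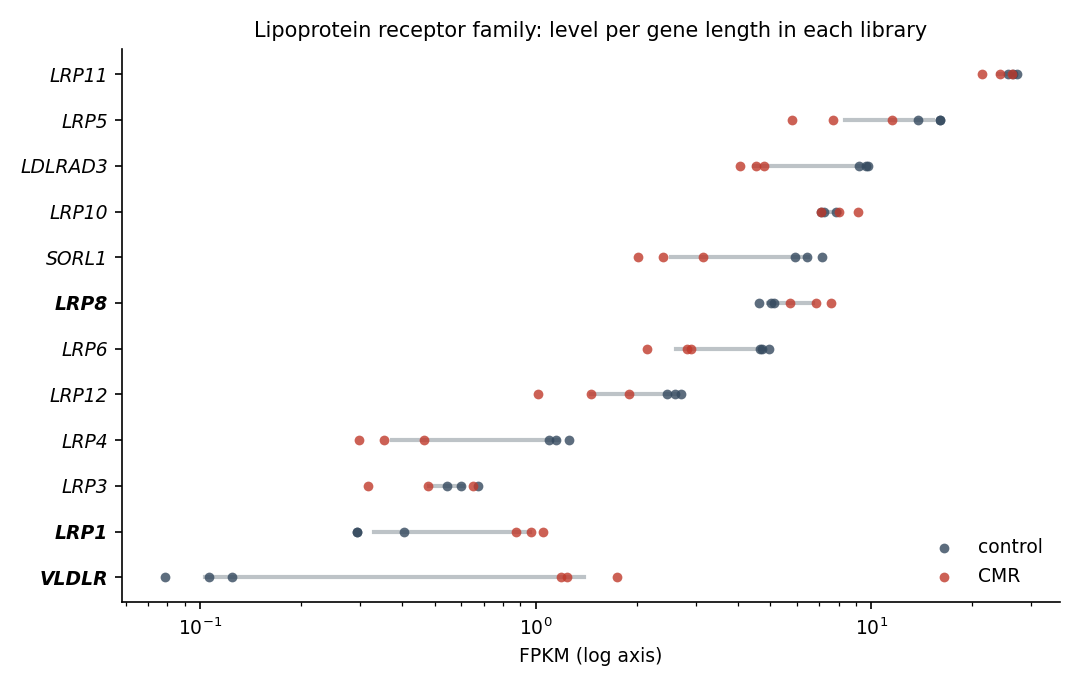
FPKM (log axis) of lipoprotein receptor family genes in each control and CMR library. Lines join the group means, and the scarce LRP1B and LRP2 are left out. VLDLR, lowest of those shown in control, passes LRP1, LRP3 and LRP4 with CMR.

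Of the 11 other receptors described here, 10 were tested. By edgeR 6 of them fell and 4 were not called (60.0% called, against 38.6% of all genes tested). The median log2 fold change of these 10 receptors was -0.77 against -0.01 over all genes tested. VLDLR, LRP1 and LRP8, which were chosen on this contrast and were higher, are not in that median. It is therefore not the median of the family. LRP4, a receptor of the neuromuscular junction, had the largest fall of the 6 (log2 fold change -1.57 ± 0.20, edgeR's adjusted p = 0.00108). SORL1, an endosomal sorting receptor, fell from 146 ± 13.7 to 59.9 ± 12.4 CPM (SD, n = 3; log2 fold change -1.29 ± 0.16, edgeR's adjusted p = 0.000982). LDLRAD3 was lower by a log2 fold change of -1.02, and the Wnt co-receptor genes LRP6 and LRP5 by -0.79 and -0.80. The call of LRP5 was lost without CMR replicate 2 (edgeR's adjusted p = 0.0877) and without control replicate 1 (0.0803), 2 (0.0514) or 3 (0.0781).

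Of the genes described here that fold, sort or degrade these receptors, 4 of 10 tested rose and none fell. That is 40.0% called, near the 38.6% of all genes tested. DAB2, a clathrin adaptor that binds the tails of receptors of this family, rose from 14.1 ± 0.366 to 37.6 ± 7.30 CPM (SD, n = 3; log2 fold change 1.41 ± 0.16, edgeR's adjusted p = 0.000685). The endosomal recycling gene CCDC93 and the adaptor gene ANKS1A rose by 0.40 and 0.49 (log2). NUMB, another endocytic adaptor gene, had a log2 fold change of 0.64 (edgeR's adjusted p = 0.0347) with libraries that overlapped between groups. That call was lost without control replicate 1 (0.115), control replicate 2 (0.111), CMR replicate 2 (0.101) or CMR replicate 3 (0.103), with upper-quartile scaling (0.0665) and with limma on log2(FPKM + 1) (0.0594). LRPAP1, the ER chaperone of the family, had a log2 fold change of -0.31 and was not called (edgeR's adjusted p = 0.0739), though it was called lower without CMR replicate 1 (0.0305), with upper-quartile scaling (0.0247), without a composition factor (0.0448) and among genes of at least 1 FPKM (0.0395).

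The ligands and the enzyme that ANGPTL4 inhibits were mostly scarce. Of 12 ligand and apolipoprotein genes 8 were below the filter on low counts, among them APOB and the reelin gene RELN. APOE, the ligand shared by VLDLR, LRP8 and LRP1, had the highest level per gene length of these (32.7 FPKM in control and 40.6 FPKM with CMR, group means) and a log2 fold change of 0.39 ± 0.18 without a call (edgeR's adjusted p = 0.136). It was called higher without CMR replicate 3 (0.0392). CLU, another ligand of VLDLR and LRP8, fell from 108 ± 13.7 to 66.0 ± 10.9 CPM (SD, n = 3; log2 fold change -0.72, edgeR's adjusted p = 0.00853). APOC1 had a log2 fold change of -0.89 (edgeR's adjusted p = 0.0465), and missed the threshold without control replicate 1 (0.104), control replicate 2 (0.136), control replicate 3 (0.0727), CMR replicate 2 (0.137) or CMR replicate 3 (0.124) and among all genes with any count (0.0706). LPL, lipoprotein lipase, had 4 counts in control replicate 1 and 0 in every other library. Among lipases and their regulators, 1 of 6 tested was called (16.7%, against 38.6% of all genes tested). It was FURIN, a protease that cleaves ANGPTL proteins and lipases, which fell from 67.9 ± 4.40 to 30.7 ± 3.73 CPM (log2 fold change -1.14 ± 0.12, edgeR's adjusted p = 0.000533).

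MFSD2B, the closest relative of MFSD2A and a sphingosine-1-phosphate transporter, was scarce in both groups. It had means of 0.603 ± 0.642 CPM in control and 0.383 ± 0.242 CPM with CMR (SD, n = 3), overlapping libraries and no call (edgeR's adjusted p = 0.593). Of 10 genes listed as relatives of MFSD2A in lipid transport or as enzymes that rebuild phospholipids from lysophospholipids, 3 rose and 5 fell. That is 80.0% called, against 38.6% of all genes tested. The acyltransferase genes LPCAT2 and LPCAT4 fell, with log2 fold changes of -1.31 and -1.18, while MBOAT1 rose by 1.24 (edgeR's adjusted p = 0.00130, 0.000717 and 0.00342). SPNS2, a sphingosine-1-phosphate exporter that the table lists under the clone name AC118754, had a log2 fold change of 1.31 ± 0.27 (edgeR's adjusted p = 0.00839). It is overlapped by the more abundant MYBBP1A on the other strand.

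Of 13 tested genes of fatty acid uptake, activation and storage, 2 rose and 2 fell (30.8% called, against 38.6% of all genes tested). PLIN2, which coats lipid droplets, rose from 29.9 ± 2.09 to 57.9 ± 8.02 CPM (SD, n = 3; log2 fold change 0.95 ± 0.13, edgeR's adjusted p = 0.00141). DGAT2, which makes triglyceride, fell by 0.998 on the log2 scale (edgeR's adjusted p = 0.00440) and FABP5, a fatty acid carrier, fell by 0.64 (edgeR's adjusted p = 0.00152). ACSL1, which activates fatty acids, rose by 0.53 (edgeR's adjusted p = 0.0155), and missed the threshold without control replicate 2 (0.0502) or control replicate 3 (0.0606). None of the tested SLC27A fatty acid transport genes was called.

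**Figure D4:**
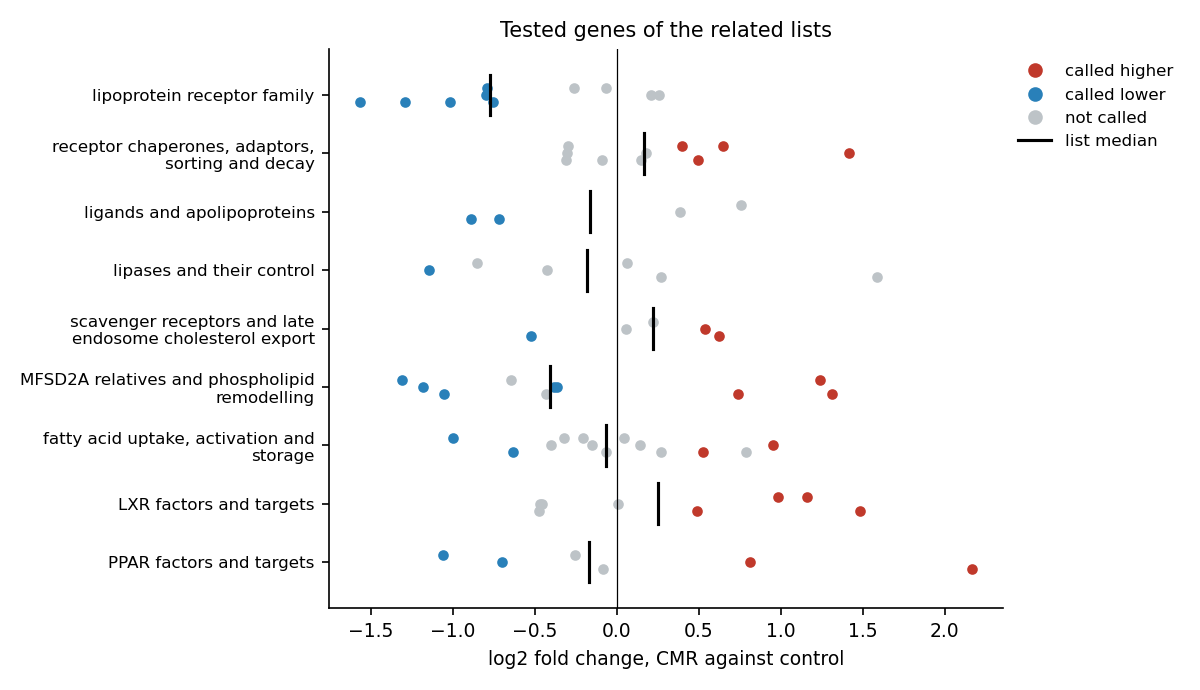
Log2 fold change, CMR against control, of the tested genes in 9 lists related to the 6 genes. Each point is a gene, coloured by its edgeR call, and black lines are list medians. The lipoprotein receptor family list, which leaves out VLDLR, LRP1 and LRP8, lies mostly below 0. Each of the other lists has its median between -0.41 and 0.25.

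MYLIP is a target of the LXR factors, and ANGPTL4 of the PPAR factors. Both were lower with CMR, and whether these factors had a part in that was not tested. In the LXR list 4 of 8 genes rose and none fell (50.0% called, against 38.6% of all genes tested). NR1H2, encoding LXR-beta, rose from 17.7 ± 0.543 to 35.1 ± 4.16 CPM (SD, n = 3; log2 fold change 0.99 ± 0.12, edgeR's adjusted p = 0.00106). The value of NR1H2 is uncertain, since the counting is not stated to use strand. NR1H3, encoding LXR-alpha, was not called (log2 fold change -0.47, edgeR's adjusted p = 0.153) and is overlapped by the more abundant ACP2. Of the LXR targets, SMPDL3A rose by 1.49 (edgeR's adjusted p = 0.000561). The cholesterol exporter gene ABCA1 rose by 0.49 (edgeR's adjusted p = 0.0317), and ABCG1 was at 0.187 CPM in control and 0.135 CPM with CMR, without a call. The call of ABCA1 was lost without control replicate 1 (0.0691), control replicate 2 (0.0814), control replicate 3 (0.106), CMR replicate 1 (0.0520) or CMR replicate 2 (0.103), with upper-quartile scaling (0.0879), without a composition factor (0.0576) and with limma on log2(FPKM + 1) (0.107). RXRB, a partner of LXR and PPAR factors, rose by 1.16 (edgeR's adjusted p = 0.000314), with the far more abundant SLC39A7 overlapping it on the other strand.

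In the PPAR list 2 of 6 tested genes rose and 2 fell (66.7% called, against 38.6% of all genes tested). The receptor gene PPARA rose from 6.92 ± 2.26 to 31.1 ± 6.10 CPM (SD, n = 3; log2 fold change 2.17 ± 0.28, edgeR's adjusted p = 0.00121), and PPARD by 0.81 (edgeR's adjusted p = 0.00266). The targets PDK4, which restrains pyruvate oxidation, and CPT1A, which admits fatty acids to mitochondria, fell, with log2 fold changes of -1.06 and -0.70 (edgeR's adjusted p = 0.00583 and 0.00145). In direction PDK4 and CPT1A were like ANGPTL4, and PLIN2, also known as a PPAR target, was not. The 2 other tested genes of the list were not called. Only called genes are named here, so no common direction of PPAR targets is read from them.

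For late endosomes, where receptor-borne cholesterol is released, NPC1 rose from 66.9 ± 3.59 to 103 ± 2.32 CPM (SD, n = 3; log2 fold change 0.62 ± 0.08, edgeR's adjusted p = 0.00132). NPC1 overlaps RMC1 on the other strand. Its partner NPC2 rose by 0.54 (edgeR's adjusted p = 0.0310), and missed the threshold without control replicate 2 (0.105), control replicate 3 (0.105), CMR replicate 1 (0.0650) or CMR replicate 2 (0.0972), with upper-quartile scaling (0.0746) and without a composition factor (0.0527). The HDL receptor gene SCARB1 fell by 0.52 (edgeR's adjusted p = 0.0465), and missed the threshold without control replicate 1 (0.133), control replicate 2 (0.125), control replicate 3 (0.0715), CMR replicate 2 (0.122) or CMR replicate 3 (0.0876) and among all genes with any count (0.0611). Over all 9 lists, 95 genes of which 72 were tested, 17 rose and 19 fell (50.0% called, against 38.6% of all genes), with a median log2 fold change of -0.09. With upper-quartile scaling the counts were 13 and 22.

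The genes whose profile over the 6 libraries was most like those of MFSD2A and VLDLR were sought among 12068 other protein-coding genes. Likeness was the root mean square difference of log2 CPM, each gene centred on its own mean. A prior count of 2 was added before taking the log. Nearest to VLDLR were the tight junction gene CLDN3 (difference 0.16), the cystine antiporter gene SLC7A11 (0.19), the ER co-chaperone gene DNAJB9 (0.20) and CHAC1, which degrades glutathione (0.20). CMR replicate 3 was the highest library of its group for VLDLR, CLDN3, SLC7A11 and DNAJB9, but not for CHAC1. The genes were picked for their likeness library by library, so nothing is read from a shared highest library. MFSD2A had no neighbour as close. Its nearest were OSTN (0.37), the stress-induced gene FAM129A (0.44), C17orf107 (0.45) and BEX4 (0.45). BEX4 went from 0.321 ± 0.168 to 23.1 ± 2.87 CPM (SD, n = 3), and OSTN from 0 counts in each control library to 152, 165 and 129 counts with CMR. With 0 counts, the value of OSTN in control is set by the prior count. Its log2 fold change by edgeR was 10.1, against 6.04 for MFSD2A, so its likeness to MFSD2A rests on that prior.

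The nearest tested genes on the chromosome had smaller log2 fold changes than MFSD2A and VLDLR, a difference that was not tested. Before MFSD2A, at a distance of 52856 bases, MYCL had a log2 fold change of 1.68 ± 0.39 (edgeR's adjusted p = 0.0132), and was not called with limma on log2(FPKM + 1) (0.0502). After it, at 70265 bases, CAP1 had -0.44 ± 0.13 (edgeR's adjusted p = 0.0326). CAP1 was not called without control replicate 2 (0.0766), CMR replicate 1 (0.0508), CMR replicate 2 (0.110) or CMR replicate 3 (0.0712). On either side of VLDLR, SMARCA2 had 0.52 ± 0.17 and PUM3 0.41 ± 0.12 (edgeR's adjusted p = 0.0443 and 0.0306). SMARCA2 was not called without control replicate 1 (0.123), control replicate 2 (0.142), CMR replicate 1 (0.0679) or CMR replicate 3 (0.119), nor with upper-quartile scaling (0.101), without a composition factor (0.0695), with no filter on low counts (0.0678) or with limma on log2(FPKM + 1) (0.134) or log2(FPKM + 0.1) (0.136). PUM3 was not called without any 1 control library (0.0682 to 0.104), without CMR replicate 2 (0.0975) or CMR replicate 3 (0.0727), nor with upper-quartile scaling (0.0924) or without a composition factor (0.0510). The genes on either side of LRP1 and of MYLIP were not called, although NAB2, beside LRP1, was called lower without control replicate 1 (0.0489). Next to LRP8, at 3846 bases, the exon junction gene MAGOH rose, with a log2 fold change of 1.51 ± 0.10 (edgeR's adjusted p = 0.000106), and GLIS1, on its other side, fell by 1.01 (edgeR's adjusted p = 0.0113). RAB11B-AS1, whose span starts 3 bases after that of ANGPTL4 ends, had a log2 fold change of 1.49 (edgeR's adjusted p = 0.0449), opposite in sign to ANGPTL4. On the other side of ANGPTL4, at 40343 bases, the ribosomal protein gene RPS28 had a log2 fold change of -0.29 ± 0.14 and was not called (edgeR's adjusted p = 0.161), though it was called lower without CMR replicate 1 (0.0213). RAB11B-AS1 was not called without control replicate 1 (0.113), control replicate 2 (0.125), CMR replicate 1 (0.0851) or CMR replicate 2 (0.142), nor with upper-quartile scaling (0.0599), without a composition factor (0.0541) or with no filter on low counts (0.0665).

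**Figure D5:**
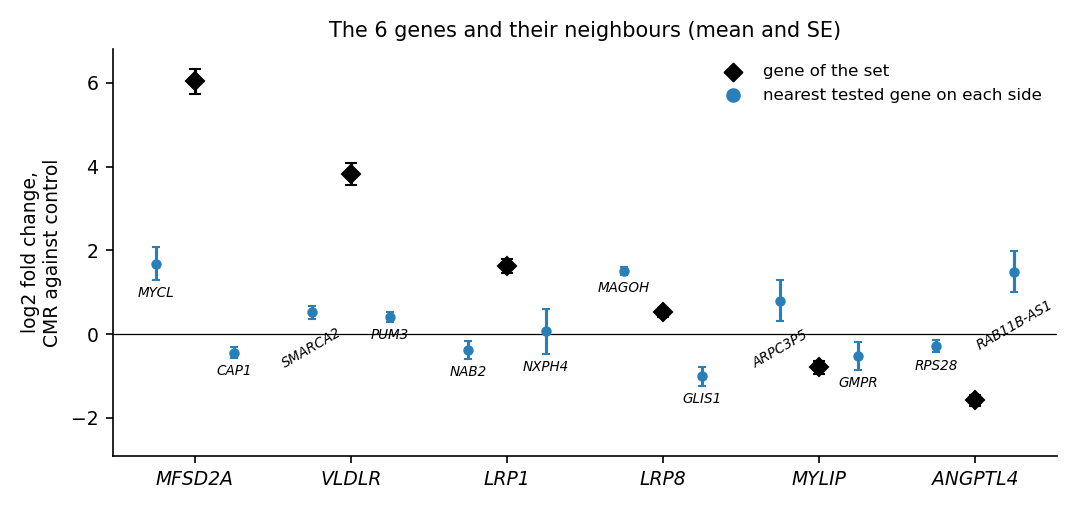
Log2 fold change, CMR against control, with its SE, of the 6 genes (diamonds) and of the nearest tested gene on each side (circles). MFSD2A at 6.04 and VLDLR at 3.82 lie above both of their neighbours, while MAGOH lies above LRP8.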

How the data were processed

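Per the file headers, each gene has 1 count and 1 FPKM per library. The deposited counts are whole and not normalized. The authors' FPKM relate fragments to gene length and library size, and a gene without counts is listed at 0.0001. Bowtie 0.12.2, StringTie 1.3.0, HISAT2 2.0 and a mouse build, mm8, stand in the submitters' processing notes, but the identifiers in the table are those of human genes. For 3 of the 6 genes the span equals that in GENCODE release 29 on GRCh38, and for the others it differs by under 50 bases at each end. The table had 0 columns of no sample.

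Counts were tested with edgeR 4.0.16 in R 4.3.3 (TMM scaling, filterByExpr with a minimum count of 10 and a minimum total of 15, quasi-likelihood test, Benjamini-Hochberg adjustment over 19200 genes, threshold 0.05). "Rose" and "fell" are used for genes past that threshold. The SE is the log2 fold change divided by the square root of the test's F. Tested on simulated counts for this comparison (18397 genes), edgeR recovered 23.0% of 100 genes changed 2-fold and 55.0% of 100 changed 4-fold, with 8 false calls among the other genes. Only 200 genes were changed there, a far smaller share than the 38.6% called in the data. Since the adjustment depends on that share, these rates are not the sensitivity of the comparison itself. The 6 genes and the 9 lists were chosen with earlier results of these data known. Named are the 6 genes, up to 4 called genes per list with the largest change, 12 others irrespective of result, and the 4 genes most like MFSD2A and VLDLR in profile. Some genes of the planned lists are not reported here and were left out of the lists' counts, ranks and medians. The genes next to the 6 on the chromosome were added after the data were seen. Promoters were searched on both strands, in the 250 bases before the RefSeq start. Alternatives were DESeq2 1.42.0, its size factors, upper-quartile scaling, no composition factor, limma 3.58.1 on log2(FPKM + 1) or log2(FPKM + 0.1), other filters, the replicate number as a block and leaving out each library. Figures were drawn with matplotlib 3.10.9.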

Additional observations from a re-analysis of the deposited data

How the results depend on the processing

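The sign of the fold change of all 6 genes was kept under every alternative run. A pseudocount compressed the scarce ones. With limma on log2(FPKM + 1) the log2 difference was 3.41 for MFSD2A, 1.11 for VLDLR, 0.56 for LRP1, 0.37 for LRP8, -0.61 for MYLIP and -1.33 for ANGPTL4, and on log2(FPKM + 0.1) it was 5.39 for MFSD2A, 2.86 for VLDLR and 1.31 for LRP1. With upper-quartile scaling ANGPTL4 was at -1.71. VLDLR and LRP1 had a mean under 1 FPKM and gave no value under that filter. Leaving out each library in turn gave 5.83 to 6.32 for MFSD2A, 3.61 to 3.98 for VLDLR, 1.54 to 1.80 for LRP1, 0.43 to 0.61 for LRP8, -0.88 to -0.70 for MYLIP and -1.63 to -1.52 for ANGPTL4. It gave 12 to 17 related genes called higher, 13 to 22 called lower, and over all genes 3154 to 3977 higher and 2506 to 3734 lower.

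With the replicate number as a block, 3582 genes were called higher and 3155 lower over all genes, and 18 and 21 of the related genes. MFSD2A was at 6.04, VLDLR at 3.82, LRP1 at 1.64, LRP8 at 0.51, MYLIP at -0.80 and ANGPTL4 at -1.58. LRPAP1 was called lower and APOE higher with the block (edgeR's adjusted p = 0.0484 and 0.0417), while CAP1 and RAB11B-AS1, next to MFSD2A and ANGPTL4, were not called (0.0729 and 0.0788). Deviations of same-numbered libraries correlated with r = 0.0344, 0.0440 and 0.0520 across genes, too weak to show pairing, although each was the highest for its number. Counts of 36 to 90 in the control libraries limit the precision of the folds of MFSD2A and VLDLR.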
